A study of Mus musculus with 4 samples.

Results

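The ETS factors considered here are 10 genes around Elf1: Elf1, Elf2, Elf4, Ets1, Ets2, Fli1, Erg, Etv6, Gabpa and Spib. They were listed by name for this comparison, and each was found among the 43629 gene identifiers of all 4 deposited count tables. RNA was sequenced from CD117+ hematopoietic stem and progenitor cells (HSPCs) of young adult C57Bl/6 mice whose Chaf1b alleles are floxed, that is, flanked by sites that the recombinase Cre cuts. Chaf1b encodes the middle subunit of chromatin assembly factor-1 (CAF-1), a histone chaperone that deposits nucleosomes behind the replication fork. In the MIGR1 control group, 2 libraries of cells of genotype Chaf1b (fl/fl) had received the empty MIGR1 retrovirus. In the Chaf1b-deleted group, 2 libraries, given the genotype Chaf1b (-/-), came from cells that had received MIGR1-Cre. All cells grew with SCF (50 ng/mL), IL6 (20 ng/mL per the labels, while the study's methods give a lower amount), IL3 (10 ng/mL) and LDL, were infected by centrifugation with virus (spinfection), and were sorted for the eGFP of the vector 48 h later. Cre was thus present in the deleted group only, so deletion and Cre itself cannot be told apart. The labels do not say whether the libraries came from separate animals. The sex-linked genes given below show that the 2 deleted libraries came from different animals, so sex and animal differed within that group. The p-values measure the spread between these samples, which may be technical for the 2 controls.

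ETS proteins share a winged helix-turn-helix DNA-binding domain that recognises a short core, GGAA, read on the complementary strand as TTCC. The flanking bases and the partner proteins differ between members, and a blood progenitor expresses many of them at the same time. In this tissue the family is known for keeping stem cells (Erg, Fli1, Etv6), for the myeloid and B cell program (Spi1, Spib), for lymphoid and natural killer cells (Ets1, Elf4) and for mitochondrial and housekeeping genes (Gabpa). The comparison asks whether the mRNA level of the factors themselves differed in these HSPCs when Chaf1b was deleted. RNA counts do not give the level of CAF-1 protein that remained. The study followed ELF1 binding on chromatin in other cells, immortalised granulocyte-macrophage progenitors with an inducible knockdown of Chaf1b. In those cells it reported no significant change in ELF1 expression early after CAF-1 depletion. It also reported that knockdown of ELF1 there lowered the induction of megakaryocyte and erythrocyte surface markers.

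The tables held between 18468637 and 25409926 counts on genes per library. Reads that the counting matched to no annotated feature made up 42.3% and 42.1% of uniquely aligned reads in the controls. They made up 35.8% and 48.3% in the deleted libraries. Whether these reads lay inside or outside genes is not given. Chaf1b itself was at 80.3 and 57.9 CPM (counts-per-million, the count over the total on genes of the library) in the controls and at 16.1 and 17.9 CPM in the deleted libraries (log2 fold change -2.01, SE 0.25, edgeR adjusted p = 0.033). Kit, which encodes CD117, was detected at 95.6 CPM or more in every library. Deleted replicate 1 stood apart: it held 3149 CPM summed over 25 interferon-stimulated genes, against 457 to 574 CPM in the other 3 libraries. It also held Xist at 336 CPM against at most 1.30 CPM, and the Y-linked genes Ddx3y, Eif2s3y, Kdm5d and Uty at 0.0850 CPM or less, so that this library went with cells of the other sex than the remaining 3. In bulk RNA, fewer cells of a type and less RNA per cell cannot be told apart.

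None of the 10 ETS genes was called higher or lower in Chaf1b-deleted HSPCs, with a call needing at least a 1.5-fold change and an adjusted p-value under 0.05 in edgeR's quasi-likelihood test over 16500 genes. Over all genes tested, 61 were called higher, which is 0.37%, and 1 lower, which is 0.00606%. At an unadjusted p under 0.05, 1 of the 10 genes was higher, Spib, against 9.15% of all genes, and 0 were lower, against 3.1% of all genes. DESeq2 called 1 of the 10, Spib, and over all genes it called 2.85% higher and 0.194% lower. The median log2 fold change of the 10 genes was -0.039, beside -0.03 over all genes tested. In CPM, both deleted libraries lay above both controls for 3 of the 10 genes (Elf2, Ets2 and Spib), against 21.4% of all genes, and below both controls for 2 (Fli1 and Gabpa), against 22.9% of all genes. The 2 groups overlapped for the other 5.

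Without deleted replicate 1, again 0 of the 10 were called (0.667% of all genes were called higher), and the log2 fold changes were -0.33 for Elf1, 0.19 for Elf2, 0.23 for Elf4, -0.19 for Ets1, 0.20 for Ets2, -0.54 for Fli1, -0.34 for Erg, 0.035 for Etv6, -0.45 for Gabpa and 1.26 for Spib. Etv6 changed its sign, and the other 9 genes kept theirs. Fli1 then had an unadjusted p of 0.0324 (adjusted p = 0.331, edgeR; 4.16% of all genes were lower at an unadjusted p under 0.05), with deleted replicate 2 as the single library of its group.

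**Figure D1:**
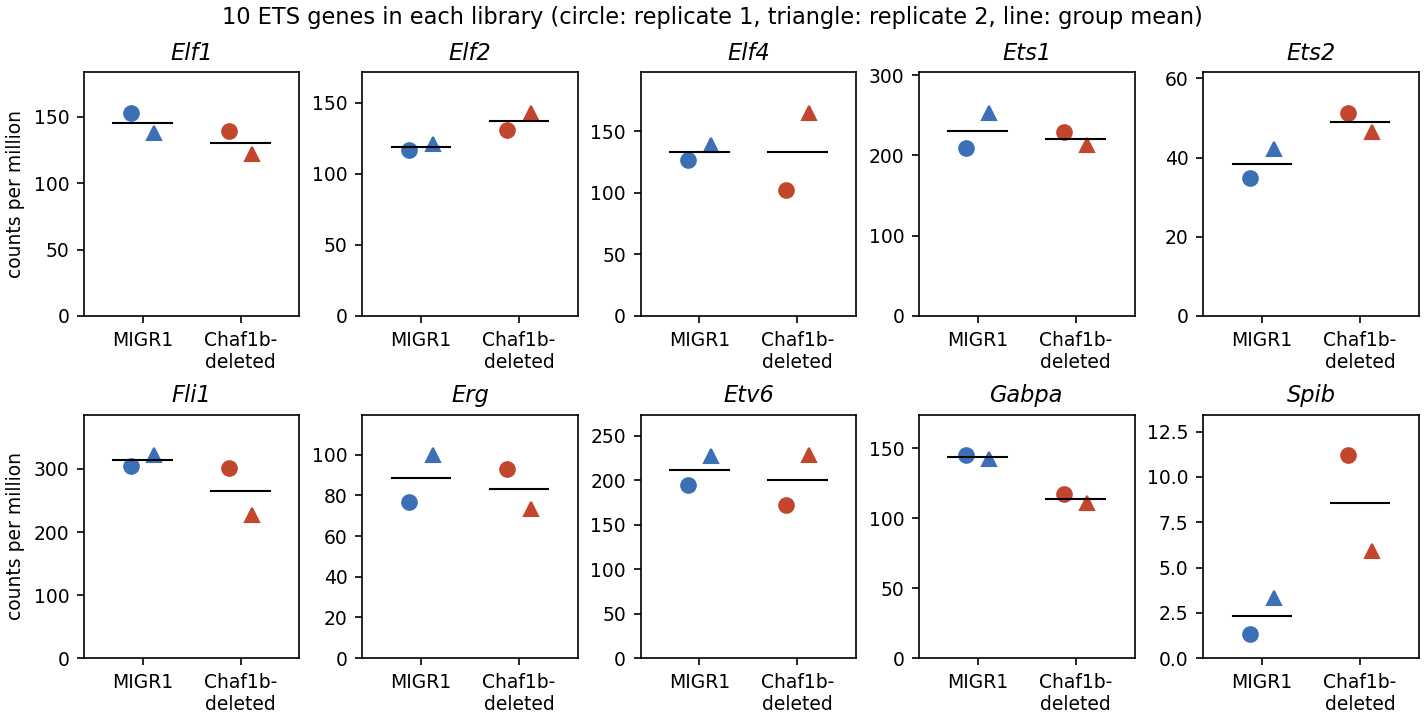
CPM (linear axes from 0, one panel per gene) of the 10 ETS genes in the 2 MIGR1 control and the 2 Chaf1b-deleted libraries; points are libraries and lines are group means. Spib is the gene whose group means differ most as a ratio, with 1.36 and 3.31 CPM against 11.2 and 5.90 CPM, while Elf1 ran from 122 to 153 CPM over all 4 libraries.

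Elf1 is a broadly expressed activator of blood cell genes. Its gene, ENSMUSG00000036461, lies on the plus strand at chr14:79881001-79982283 of NCBIM37, the mouse build also called mm9. Elf1 was at 153 and 138 CPM in the controls and at 139 and 122 CPM in the deleted libraries. Control replicate 1 was the highest and deleted replicate 2 the lowest of the 4, and deleted replicate 1 lay between the controls, so that the groups overlapped. The log2 fold change was -0.12 (SE 0.22, 95% interval -0.64 to 0.39, edgeR adjusted p = 0.874). In CPM, which is not normalised as in the fit, the 2 control libraries differed by 0.15 on the log2 scale and the 2 deleted libraries by 0.19. By TMM-normalised values per kilobase the deleted pair lay further apart (34.7 and 26.5, against 35.3 and 31.3 in the controls). At 2246 to 3497 counts per library, counting error was small, with a 95% Wilson interval of 117 to 127 CPM for the lowest library. The interval admits a decrease of up to 1.55-fold and an increase of up to 1.31-fold. Without deleted replicate 2 the log2 fold change was 0.068.

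Elf2 and Elf4 are the closest relatives of Elf1. Elf2, a regulator of lymphocyte genes that is made as activating and repressing isoforms, was at 117 and 121 CPM in the controls and at 131 and 143 CPM in the deleted libraries. Both deleted libraries were higher, and the pairs within a group differed by 0.042 and 0.12 on the log2 scale. The log2 fold change of Elf2 was 0.23 (SE 0.19, 95% interval -0.22 to 0.68, adjusted p = 0.701). Gene counts add the isoforms together, so a shift between them would not show.

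Elf4, an X-linked gene known for natural killer cell development and stem cell quiescence, was at 127 and 139 CPM in the controls and at 102 and 165 CPM in the deleted libraries. Here the deleted libraries were both the lowest and the highest of the 4. In CPM they differed by 0.69 on the log2 scale against 0.13 between the controls. By TMM-normalised values per kilobase they lay nearer, at 18.0 and 25.3 against 20.8 and 22.2 in the controls. The log2 fold change was 0.0091 (SE 0.23, 95% interval -0.53 to 0.54, adjusted p = 0.993). The lower deleted library is the one with Xist and the interferon-stimulated genes; the part of either in the Elf4 value was not tested.

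Ets1 is the founding member of the family and acts mostly in lymphocytes. Ets1 was at 209 and 253 CPM in the controls and at 229 and 213 CPM in the deleted libraries. In CPM both deleted libraries fell between the controls. By TMM-normalised values per kilobase, deleted replicate 2 was below both controls (31.3 against 32.7 and 38.8). The log2 fold change was -0.033 (SE 0.22, 95% interval -0.55 to 0.48, edgeR adjusted p = 0.969). Ets2, a target of Ras and MAP kinase signalling with roles in macrophages, was at 34.9 and 42.1 CPM in the controls and at 51.3 and 46.5 CPM in the deleted libraries. Both deleted libraries were above both controls, with a log2 fold change of 0.38 (SE 0.22, 95% interval -0.14 to 0.90, adjusted p = 0.561). The gap in CPM between the 2 controls was 0.27 on the log2 scale.

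Fli1 and Erg encode a closely related pair needed for stem cells and megakaryocytes. Fli1 was at 305 and 322 CPM in the controls and at 302 and 227 CPM in the deleted libraries. Deleted replicate 1 was just under the lower control, and deleted replicate 2 was well below it. With TMM-normalised values per kilobase the first of these moved above both controls (98.3 and 102 against 105 and 69.0), so the separation of Fli1 depends on the scaling. The log2 fold change was -0.20 (SE 0.26, 95% interval -0.80 to 0.39, adjusted p = 0.812), and it was 0.078 without deleted replicate 2. Erg was at 76.9 and 99.8 CPM in the controls and at 93.0 and 73.5 CPM in the deleted libraries. The groups overlapped, with a log2 fold change of -0.045 (SE 0.25, 95% interval -0.63 to 0.54, adjusted p = 0.965).

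These 4 genes lie in 2 neighbouring pairs. Ets1 (chr9:32443806-32565405) and Fli1 (chr9:32229793-32348974) are 94.8 kb apart in NCBIM37, and Ets2 (chr16:95923682-95942658) and Erg (chr16:95580776-95808200) are 115 kb apart, in both cases on opposite strands and with 0 coding genes between them. Chaf1b, the deleted gene, sits on the same chromosome as the second pair, 1.67 Mb from Erg and 2.02 Mb from Ets2. Gabpa is also on chromosome 16, 9.02 Mb from Chaf1b. Of the 3 members on the chromosome of Chaf1b, Ets2 had a positive, Gabpa a negative and Erg a near-zero log2 fold change (0.38, -0.31 and -0.045).

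Etv6 is a repressor that recruits corepressors through its pointed domain and is needed for adult bone marrow stem cells. Etv6 was at 195 and 227 CPM in the controls and at 172 and 228 CPM in the deleted libraries. In CPM the deleted libraries were the lowest and, narrowly, the highest of the 4. By TMM-normalised values per kilobase, control replicate 2 was the highest (37.3 against 35.9 in deleted replicate 2). The log2 fold change was -0.064 (SE 0.21, 95% interval -0.55 to 0.42, edgeR adjusted p = 0.938).

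Gabpa encodes the DNA-binding subunit of GA-binding protein, which works as a complex with Gabpb1 or Gabpb2 and drives mitochondrial and housekeeping genes. Gabpa was at 145 and 142 CPM in the controls and at 117 and 111 CPM in the deleted libraries. Both deleted libraries were below both controls, and in CPM the pairs within a group differed by 0.027 and 0.082 on the log2 scale. The deleted pair lay further apart with TMM-normalised values per kilobase, at 22.2 and 18.3 against 25.6 and 24.6 in the controls. The fitted log2 fold change was -0.31 (SE 0.21, 95% interval -0.78 to 0.17, adjusted p = 0.61), with a spread estimated in part across all genes. Gabpa kept a negative log2 fold change under every alternative tried, between -0.45 and -0.17. Of its exonic length, 6.98% overlaps Atp5j on the opposite strand, the largest such share among the 10 genes, and whether the counting used strand is not stated.

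Spib is the close relative of Spi1 (PU.1) that acts in B cells and plasmacytoid dendritic cells, and it showed the largest fold change of the 10 genes. Its gene, ENSMUSG00000008193, lies on the minus strand at chr7:51781365-51787441 of NCBIM37. Spib had 31 and 84 counts in the controls and 264 and 109 counts in the deleted libraries, or 1.36 and 3.31 CPM against 11.2 and 5.90 CPM. Both deleted libraries were above both controls, and the counting intervals did not touch, at 2.67 to 4.09 CPM for the higher control and 4.89 to 7.12 CPM for the lower deleted library (95% Wilson). Libraries of the same group nevertheless differed from each other by 1.28 (controls) and 0.93 (deleted) on the log2 scale.

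The log2 fold change of Spib was 1.93 (SE 0.56, 95% interval 0.63 to 3.23, unadjusted p = 0.00937, adjusted p = 0.22), or 3.81-fold higher with an interval of 1.55 to 9.41. It was therefore not called. The call depended on the test and the filter: the adjusted p was 0.0578 with edgeR's exact test, 0.0492 with its likelihood ratio test and 0.0227 with DESeq2, and it was 0.000719 without the low-count filter, over a range of 0.000719 to 0.323 among the alternatives that kept all libraries. Without deleted replicate 1, the log2 fold change was 1.26 (adjusted p = 0.394). Without control replicate 2, it was 2.69 (adjusted p = 0.00573).

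Markers of the cell types that use Spib are given beside it. Of 5 B cell genes (Cd79a, Cd79b, Pax5, Ebf1 and Ms4a1), all 5 had both deleted libraries above both controls, a pattern seen in 21.4% of all genes, and their summed level was 16.3 and 20.1 CPM in the controls and 29.8 and 25.8 CPM in the deleted libraries. In edgeR's quasi-likelihood test 0 of the 5 were called and 0 had an unadjusted p under 0.05, with a median log2 fold change of 0.87. The marker lists were chosen with earlier results of these data known, so the share over all genes is no test of them. Of the 5 plasmacytoid dendritic cell genes, 2 had both deleted libraries above both controls, Siglech and Ly6d, and the groups overlapped for the other 3, Ccr9, Tcf4 and Bst2. They summed to 78.2 and 76.0 CPM in the controls and to 201 and 85.9 CPM in the deleted libraries. Bst2, which is also interferon-stimulated and stands in that list too, gave 154 of the 201 CPM. The other 4 genes summed to 49.3 and 53.1 CPM in the controls and to 47.4 and 58.5 CPM in the deleted libraries. Tcf4, at 47.0 and 50.5 CPM against 41.3 and 53.7 CPM, gave most of that sum, which thus hides the rarer genes. Siglech, a surface receptor that defines these cells, was at 0.792 and 0.197 CPM against 1.61 and 1.46 CPM. Ly6d was at 0.704 and 0.630 CPM against 2.89 and 1.41 CPM. In edgeR's quasi-likelihood test 0 of the 5 were called. With a higher level, 3 (Siglech, Bst2 and Ly6d) had an unadjusted p under 0.05, against 9.15% of all genes. The median log2 fold change of the 5 genes was 1.67. No B cell marker was at 0 in any library. The part of these cells, and of the interferon-stimulated genes that were high in deleted replicate 1, in the Spib value was not tested.

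**Figure D2:**
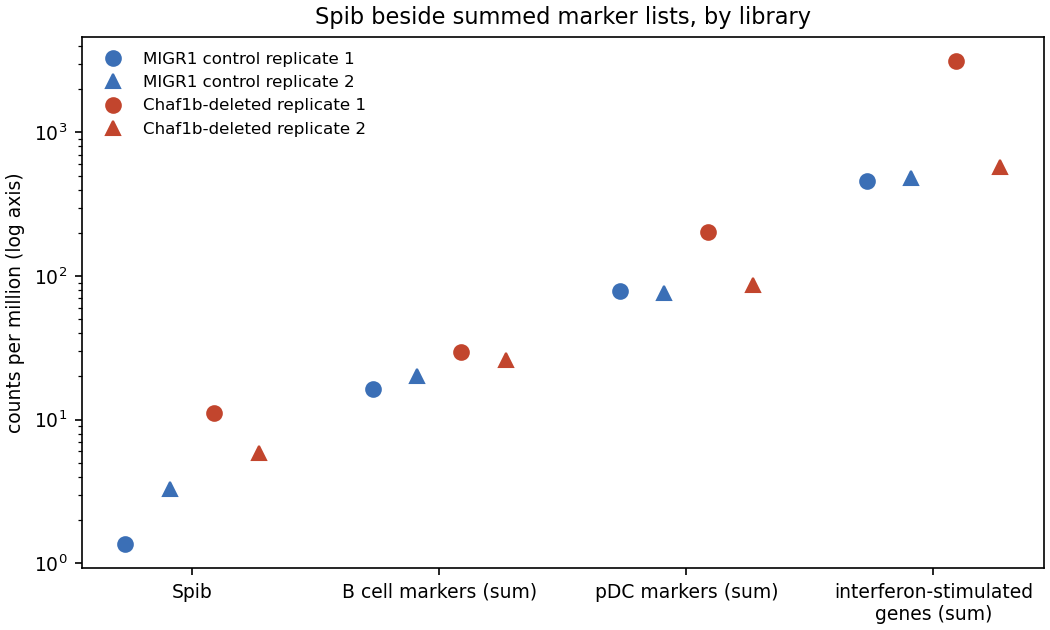
Spib and the summed levels of the B cell, plasmacytoid dendritic cell (pDC) and interferon-stimulated marker lists in each library, in CPM on a log axis. Deleted replicate 1 is the highest point of all 4 series, at 11.2 CPM for Spib and 3149 CPM for the interferon-stimulated genes. Bst2 is in both of the last lists and gave 154 of the 201 CPM of the pDC list in that library.

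Promoter sequence is shown for Spib, the gene with the largest fold change, for Elf1, and for Gabpa, whose profile over the 4 libraries was the nearest to that of Elf1. RefSeq windows from 250 bases before to 50 bases after a transcript start on GRCm38.p6 were matched by symbol for 8 of the 10 genes, in 13 windows. Each of the following runs gives, 5′ to 3′ on the strand of the gene, the 250 bases before the start, with the ETS core GGAA or its complement TTCC in capitals. They are chr7:44532072-44532321 (minus strand) for Spib, chr14:79480944-79481193 (plus strand) for Elf1 and chr16:84834874-84835123 (plus strand) for Gabpa.
Spib: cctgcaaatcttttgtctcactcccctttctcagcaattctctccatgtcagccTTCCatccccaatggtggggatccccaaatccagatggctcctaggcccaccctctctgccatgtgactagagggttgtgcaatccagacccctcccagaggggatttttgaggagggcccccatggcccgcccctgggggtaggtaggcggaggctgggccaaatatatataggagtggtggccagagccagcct
Elf1: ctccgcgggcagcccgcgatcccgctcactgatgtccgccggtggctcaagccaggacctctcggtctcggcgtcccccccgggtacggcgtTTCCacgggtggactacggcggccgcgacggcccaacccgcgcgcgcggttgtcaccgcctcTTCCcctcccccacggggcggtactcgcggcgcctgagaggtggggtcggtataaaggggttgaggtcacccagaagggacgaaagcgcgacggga
Gabpa: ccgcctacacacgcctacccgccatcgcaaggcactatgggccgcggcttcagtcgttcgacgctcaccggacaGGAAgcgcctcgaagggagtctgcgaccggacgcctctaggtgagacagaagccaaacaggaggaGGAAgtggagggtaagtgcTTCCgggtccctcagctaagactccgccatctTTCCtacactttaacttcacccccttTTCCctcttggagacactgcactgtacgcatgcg
The Spib run holds 1 core, the Elf1 run 2 and the Gabpa run 5. For Elf1 the more upstream of its windows is shown, and the other, with chr14:79515424-79515673 before the start, holds 0 cores in those 250 bases. Searched on both strands over the whole windows, the core GGAA was present in all 13 windows of the 8 genes and in 96% of all 32851 promoter windows. The longer CGGAAG, which contains the core, was found in 2 of the 13 windows, 1 of Elf2 and 1 of Gabpa, and in 16.9% of all windows. A match is a description of the letters and not of a bound site.

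**Figure D3:**
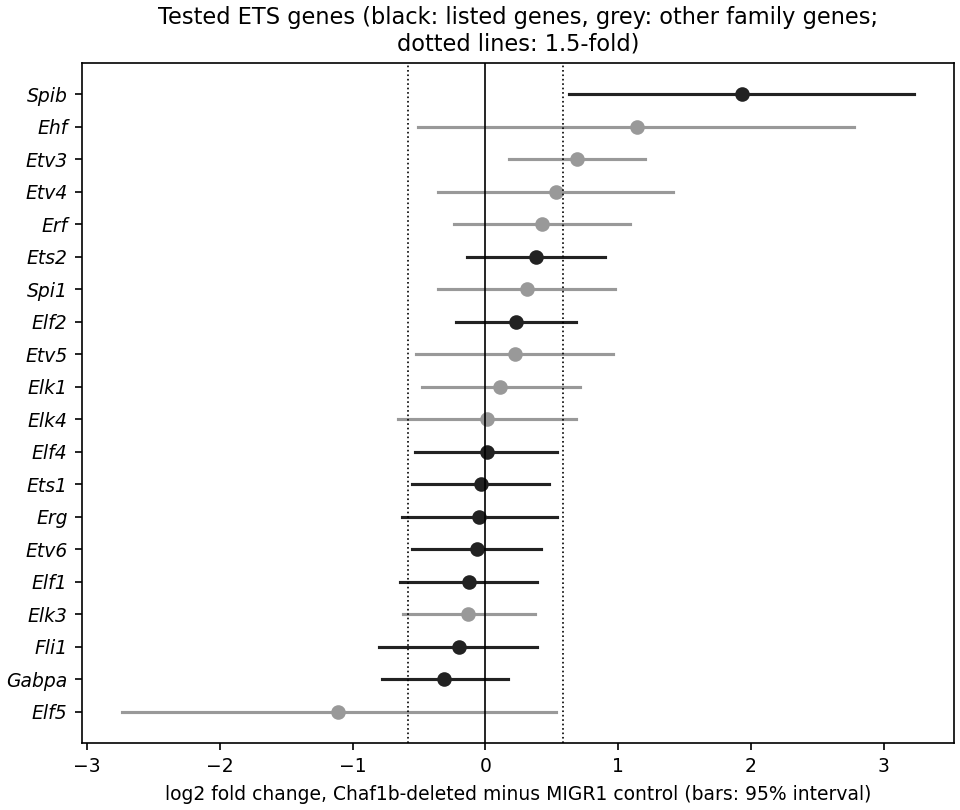
Log2 fold changes (Chaf1b-deleted minus MIGR1 control) of the 20 tested ETS genes with 95% intervals from edgeR, ordered by value; dotted lines mark 1.5-fold in each direction. The intervals of Spib (0.63 to 3.23) and Etv3 (0.18 to 1.20) lie above 0, and those of the other 18 genes include it.

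The 95% interval shows how large a change these 4 libraries leave possible. For 3 of the 10 genes, Elf4, Ets1 and Etv6, the whole interval lay within 1.5-fold in either direction. For 9 of the 10, that is all but Spib, it lay within 2-fold.

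Of the other 16 ETS family genes, 10 passed the expression filter and 0 of these were called, in this fit (0.37% of all genes called higher, 0.00606% lower) or under any alternative that was tried. Their median log2 fold change was 0.26, beside -0.03 over all genes. Spi1, the master regulator of myeloid cells, was at 183 and 203 CPM in the controls and at 279 and 182 CPM in the deleted libraries (log2 fold change 0.31, SE 0.29, adjusted p = 0.739). Deleted replicate 1 alone was high, and without it the log2 fold change of Spi1 was -0.16. Etv3, a repressor induced in macrophages, was at 41.3 and 51.0 CPM in the controls and at 74.6 and 70.9 CPM in the deleted libraries. It was the single one of the 10 with an unadjusted p under 0.05, against 9.15% of all genes with a higher level, and both deleted libraries were higher (log2 fold change 0.69, SE 0.22, adjusted p = 0.259).

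The ternary complex factors, which act with serum response factor, were Elk1 (log2 fold change 0.11), Elk3 (-0.13) and Elk4 (0.011). Elk4 was at 102 and 97.6 CPM in the controls and at 66.0 and 136 CPM in the deleted libraries, which like those of Elf4 were the lowest and the highest of the 4. The log2 fold change was 0.43 for Erf, an ERK-regulated repressor, 0.53 for Etv4 and 0.22 for Etv5. The epithelial members Ehf (1.14, 95% interval -0.51 to 2.78) and Elf5 (-1.11, 95% interval -2.74 to 0.53) were at or under 0.669 CPM in every library. Elf3, Etv1, Etv2, Fev, Spdef and Spic were too low to be tested.

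Levels of different genes were compared per length, as TMM-normalised CPM per kilobase of exon. Fli1 was the highest of the 10 genes, at a mean of 100 ± 2.55 (SD, n = 2) in the controls and 87.0 ± 25.5 in the deleted libraries, above 97.2% of the tested genes in the controls. In the controls Ets1 (35.7 ± 4.33), Etv6 (35.0 ± 3.28) and Elf1 (33.3 ± 2.87) followed, with overlapping library values between neighbours. Below Elf1 and without overlap, Elf2 (26.9 ± 0.201), Erg (25.2 ± 4.29) and Gabpa (25.1 ± 0.663) came next, each overlapping with the next. Elf4 (21.5 ± 1.04), Ets2 (8.11 ± 0.972) and Spib (0.813 ± 0.470) were each below the gene just before without overlap. Elf4 did overlap with Erg, at 22.2 in control replicate 2 against 22.1 for Erg in control replicate 1. Spib lay above 20.4% of the tested genes, so the gene with the largest fold was the least abundant.

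In the deleted libraries the values of Elf1 and Elf2 overlapped, so that the pair had no order there. Elf2 reached 31.6 ± 1.18 beside Elf1 at 30.6 ± 5.79, and the length-scaled ratio of Elf1 to Elf2 was 1.32 and 1.16 in the controls and 1.07 and 0.862 in the deleted libraries. The 2 deleted libraries had the lower ratios. Elf1, Elf2 and Elf4 together made up 19.9% and 18.1% of the summed level of the 26 family genes in the controls and 17.5% and 21.2% in the deleted libraries, which overlap. The 10 genes together made up 72.4% and 72.3% in the controls and 67.1% and 68.8% in the deleted libraries. Spi1 exceeded Spib 141-fold and 64.8-fold in the controls and 26.2-fold and 32.5-fold in the deleted libraries.

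**Figure D4:**
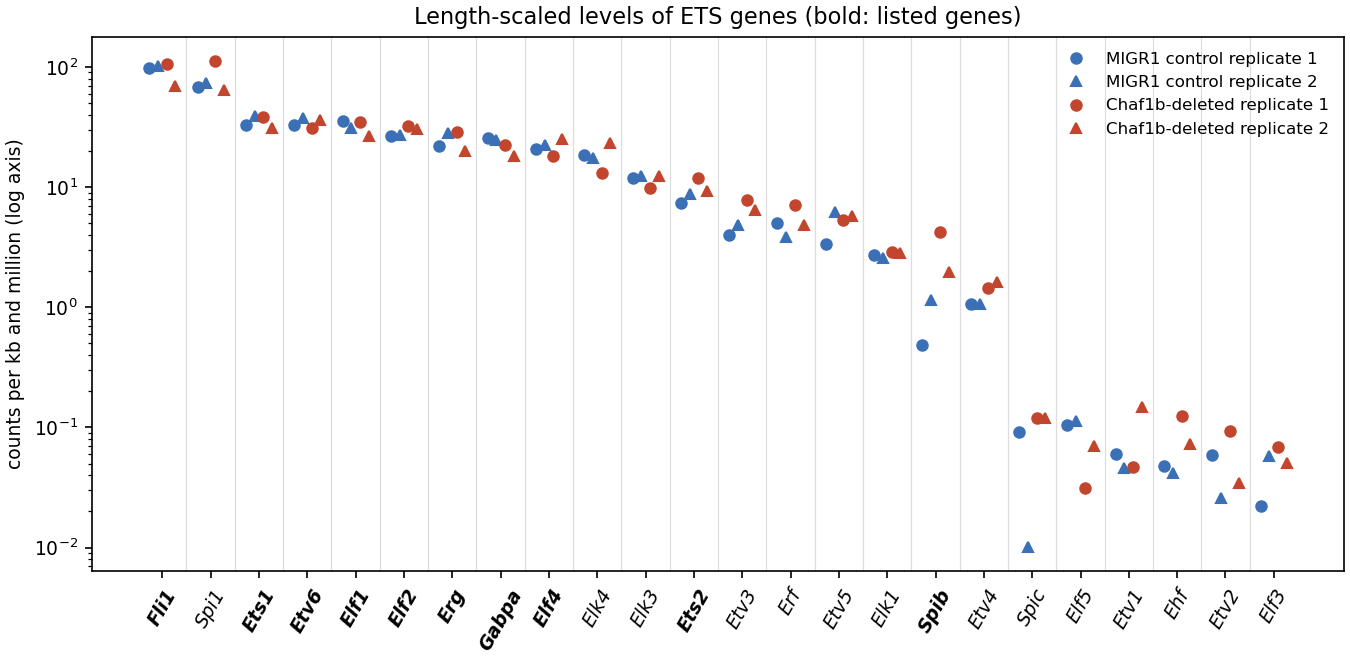
Length-scaled levels (TMM-normalised CPM per kilobase of exon, log axis) of 24 of the 26 ETS family genes in each library, ordered by the mean over the 4 libraries. Fli1 and Spi1 lead, and Spib is the lowest of the 10 listed genes, whose names are in bold.

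Profiles over the 4 libraries were compared by the root mean square difference of log2 TMM-normalised CPM centred on each gene's mean. Most like that of Elf1 was that of Gabpa (0.107), followed by Fli1 (0.122) and Ets1 (0.161) among 19 ETS genes compared. Spib was the least alike (1.19). With 4 libraries, 2 of which share each condition, this is a description of nearness only. In CPM not normalised in this way, deleted replicate 2 was the lowest library for Elf1, Gabpa, Fli1 and Erg, and the highest for Elf2, Elf4 and Etv6. By TMM-normalised values per kilobase this library was not the highest for Elf2 (30.7 against 32.4 in deleted replicate 1) or Etv6 (35.9 against 37.3 in control replicate 2). It also had the fewest counts on genes (18468637) and the highest share of reads matched to no annotated feature (48.3%). The part of depth and of this share in these values was not tested.

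Genes whose proteins work with ETS factors were read from a second list. Of 13 partners, 0 were called, against 0.37% of all genes called higher and 0.00606% lower, and 0 had an unadjusted p under 0.05, against 9.15% higher and 3.1% lower. Their median log2 fold change was 0.06, beside -0.03 over all genes. Gabpb1, the partner of Gabpa, was at 59.9 and 69.3 CPM in the controls and at 49.8 and 58.5 CPM in the deleted libraries (log2 fold change -0.24, SE 0.20, adjusted p = 0.705). Runx1, which binds beside ETS factors in many blood enhancers, was at 177 and 228 CPM in the controls. It was at 175 and 281 CPM in the deleted libraries, on either side of both controls. By TMM-normalised values per kilobase, deleted replicate 1 lay between the controls for Runx1 (24.2 against 22.8 and 28.8). Irf8, a partner of Spi1 and Spib, was at 12.3 and 18.3 CPM in the controls and at 26.5 and 20.2 CPM in the deleted libraries (log2 fold change 0.65, SE 0.31, adjusted p = 0.466).

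Of 17 genes known as targets of ETS factors, 0 were called, 4 had an unadjusted p under 0.05 with a higher level (9.15% of all genes), and 0 with a lower one (3.1%). Both deleted libraries were above both controls for 10 of the 17, against 21.4% of all genes, and below for 0, against 22.9%. The list was chosen with earlier results of these data known, so these shares are no test of ETS targets as a set. The median log2 fold change of the 17 genes was 0.57, beside -0.03 over all genes. In fits without 1 library, 0 of the 17 were called without control replicate 1 (median 0.41, 1.73% of all genes called higher) and 0 without deleted replicate 2 (median 0.53, 1.35%). Without deleted replicate 1, 2 were called, Itga2b and Pf4 (median 0.54, 0.667% of all genes called higher). Without control replicate 2, 3 were called, Klf2, Pf4 and Il7r (median 0.79, 2.05%). Klf2, a regulator of lymphocyte quiescence, was at 21.6 and 58.7 CPM in the controls and at 102 and 61.1 CPM in the deleted libraries. The 4 genes with an unadjusted p under 0.05 in the fit of all 4 libraries are known from megakaryocytes or lymphocytes.

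Pf4, a chemokine of platelet granules, was at 14.9 and 21.6 CPM in the controls and at 37.3 and 58.5 CPM in the deleted libraries (log2 fold change 1.40, SE 0.27, adjusted p = 0.0986). Itga2b, the platelet integrin CD41, was at 69.6 and 62.5 CPM against 86.8 and 159 CPM (log2 fold change 0.90, SE 0.26, adjusted p = 0.224). In both of these genes deleted replicate 2 was the highest library. The 5 megakaryocyte markers, which include both, summed to 101 and 98.2 CPM in the controls and to 141 and 247 CPM in the deleted libraries. Itga2b and Pf4 gave most of each sum, so it largely repeats their values. The remaining markers, Ppbp, Gp9 and Gp1ba, had log2 fold changes of 1.66, 0.38 and -0.13. Gp1ba was at 3.74 CPM in deleted replicate 1, below both controls (7.78 and 8.15 CPM), and above both in deleted replicate 2. The part of such cells in the Pf4 and Itga2b values was not tested.

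Il7r, the interleukin-7 receptor of lymphoid progenitors, was at 2.77 and 6.73 CPM in the controls and at 12.7 and 9.26 CPM in the deleted libraries (log2 fold change 1.25, SE 0.48, adjusted p = 0.339). Il2rb, a subunit of the interleukin-2 receptor, was at 0.484 and 0.354 CPM against 1.23 and 1.46 CPM (log2 fold change 1.69, SE 0.57, adjusted p = 0.287). The 6 T and natural killer cell markers summed to 7.56 and 5.39 CPM in the controls and to 13.1 and 10.6 CPM in the deleted libraries. Of these, Cd3e, Cd3g, Ncr1 and Klrb1c were at or under 0.382 CPM in every library, Cd3d was at 1.89 and 1.85 CPM against 2.12 and 1.84 CPM, and Lck was at 5.19 and 3.35 CPM against 10.4 and 8.39 CPM. The part of such cells in the Il7r and Il2rb values was not tested. The mitochondrial targets of Gabpa were Tfam, Tfb1m and Tfb2m, with log2 fold changes of -0.13, 0.23 and -0.077 and groups that overlapped for all 3.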

How the data were processed

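RNA-seq counts per gene were analysed for 2 MIGR1 control and 2 Chaf1b-deleted libraries. The authors aligned reads of a stranded, ribosome-depleted total RNA kit to mm9 with STAR and made the deposited raw counts with HTSeq-count; the annotation release and strand setting are not given in the sources used here. Of 43629 identifiers, 33068 were named from the NCBIM37 annotation of GENCODE vM1, which also gave positions and exonic lengths, so values per length are approximate; the list symbol Spi1 was matched through its RefSeq synonym. Replicates were not pooled by the authors.

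CPM are counts over the total on genes (18468637 to 25409926). Genes with a minimum count of 10 by edgeR's filter (16500) were compared with edgeR 4.0.16 in R 4.3.3 (limma 3.58.1): TMM, glmQLFit and glmQLFTest, two-sided, no covariate, Benjamini-Hochberg over all genes tested. A call needed 1.5-fold and an adjusted p under 0.05. The test was checked on simulated counts. A count of 3 equals 0.118 to 0.162 CPM, and intervals cover counting error only. Of stretches of 31 exonic bases, 7.87% in Elf1, 7.48% in Gabpa and 5.07% in Spib occur elsewhere in the genome, and at most 3.71% in the other listed genes. Alternatives were other normalizations, filters, tests (DESeq2 1.42.0 among them), thresholds, a replicate block and each library left out; for the lists other than ETS genes the last was added after seeing the data. Genes named were the 10 listed, all tested family genes, and partners and targets with an unadjusted p under 0.05. Gabpb1, Runx1, Irf8, Klf2, Tfam, Tfb1m, Tfb2m and the marker genes named were picked after their values were seen. The members and lists were chosen with earlier results of these data known. ATAC-seq, ChIP-seq and other experiments of the study were not analysed here. A marker gene of the lists is not reported here.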

Additional observations from a re-analysis of the deposited data

How the results depend on the processing

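The number of the 10 listed ETS genes called was 0 in most fits and 1, Spib, without the low-count filter, with edgeR's likelihood ratio test and with DESeq2. In fits without 1 of the libraries it was between 0 and 1, with Spib called without control replicate 2. Over the 16500 genes, 61 higher and 1 lower calls became 27 and 1 with DESeq2's size factors and 30 and 1 with library size only. They became 537 and 37 with the exact test, 583 and 40 with the likelihood ratio test and 471 and 32 with DESeq2. At 2-fold and an adjusted p under 0.01 they were 0 and 0. Other filters changed the number of genes tested as well. There were 808 and 79 calls among 31399 genes without the low-count filter. With at least 10 counts in every library there were 3 and 0 among 14240 genes. The cause was not tested. Leaving out 1 library gave 110 to 339 higher and 6 to 41 lower calls, where the lone library of a group was assumed to vary like the others. Without the filter the median of all genes moved to -0.13.

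The labels do not say whether same-numbered libraries were prepared together. Deviations of same-numbered libraries correlated at 0.0133 over genes, which with so few libraries cannot settle it. With the replicate number as a block, 14 genes were called higher and 0 lower, and Elf4 was at -0.011 and Elk4 at -0.048 on the log2 scale.

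In the same fits without 1 library the log2 fold change ranged from -0.33 to 0.068 for Elf1, from -0.25 to 0.23 for Elf4, from -0.19 to 0.12 for Ets1, from -0.54 to 0.078 for Fli1, from -0.34 to 0.20 for Erg, from -0.16 to 0.035 for Etv6, from -0.29 to 0.026 for Elk3, from -0.46 to 0.37 for Elk4, from -0.16 to 0.72 for Etv5 and from -0.16 to 0.66 for Spi1. Elf2, Ets2, Gabpa and Spib kept their direction under all 14 alternatives.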
